A study of Mus musculus with 12 samples.

Results

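The antiviral interferon-stimulated genes described here are 46 genes that were listed by name and looked up in a table of 20551 genes. All 46 were found and all 46 passed the filter on low counts that left 13729 genes for testing. RNA was sequenced from airway macrophages (AMs), the resident phagocytes of the air spaces, of Scnn1b-Tg mice and their wild-type (WT) littermates on a C57BL/6 background. The transgene raises a sodium channel subunit in airway epithelium under the club cell (CCSP) promoter, and its carriers develop mucus obstruction. It is not driven in AMs, and Scnn1b itself held 0 to 40 deposited counts in WT and 4 to 29 in Scnn1b-Tg libraries, so the AM libraries give no check of genotype.

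The 12 libraries formed 4 groups of 3, namely WT and Scnn1b-Tg cells in medium alone or with LPS, where LPS is 100 ng/ml lipopolysaccharide of Pseudomonas aeruginosa and exposure lasted 12 h. Cells came from 6 pools, numbered 16, 17 and 18 in WT and 17, 18 and 19 in Scnn1b-Tg, and by the numbers in the titles each pool gave 1 library per treatment. Per the labels a pool combined lavages of 3 to 4 animals and kept the adherent cells, whereas the methods of the study name flow cytometric sorting of AMs from lungs of female mice aged 6 weeks. Libraries were prepared in 2 batches: the first held 2 WT pools (16 and 17) and Tg 17, and the second held WT 18 with 2 Scnn1b-Tg pools (18 and 19), and they are called batch 1 and batch 2. Deposited counts summed to between 48191248 and 60896505 per library, on a scale where low values fell mostly at 3, 5, 8, 10, 13 and 15, so a read was worth more than 1 count.

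Interferons are cytokines that cells release after sensing microbial products. Type I interferons bind a receptor that works through the kinases JAK1 and TYK2, and transcription factors that include STAT2 and IRF9 then bind interferon-stimulated response elements, DNA sites built from repeats of GAAA. The genes switched on in this way bind or degrade viral RNA, tag proteins with ISG15, block entry and budding of viruses, and sense further nucleic acid. In macrophages LPS is known to reach the same genes through TLR4, TRIF, IRF3 and secreted interferon beta.

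To show the response elements that several members carry, the 250 bases before the annotated start of each gene were searched on both strands for GAAA, any 2 bases, GAAA. RefSeq promoters on the GRCm38.p6 build were at hand for 34 members, and 11 of these (32.4%) held a match, against 936 of all 27025 genes with an entry (3.46%). The 11 were Ifit1, Ifit3, Oas1a, Oas3, Isg15, Rsad2, Slfn5, Slfn8, Bst2, Cxcl10 and Trim30a. No entry was at hand for Oas2, Mx1, Mx2, Usp18, Parp9, Parp14, Dhx58, Zbp1, Ifi204, Ly6e, Rtp4 and Ifi27l2a. The sequences below are those of 7 members named in the results, whose LPS responses in WT ran from 0.94 in Oas1a to 4.96 in Cxcl10 on the log2 scale; they run 5′ to 3′ on the gene's own strand, with matches in capitals, and a match on the opposite strand reads TTTC, 2 bases, TTTC.
Isg15: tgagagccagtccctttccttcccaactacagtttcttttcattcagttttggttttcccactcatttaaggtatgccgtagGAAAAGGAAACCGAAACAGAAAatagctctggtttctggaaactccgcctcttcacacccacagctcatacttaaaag
Ifit1: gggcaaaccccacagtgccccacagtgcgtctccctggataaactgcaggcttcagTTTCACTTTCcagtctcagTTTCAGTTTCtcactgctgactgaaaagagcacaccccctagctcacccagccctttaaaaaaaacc
Ifit3: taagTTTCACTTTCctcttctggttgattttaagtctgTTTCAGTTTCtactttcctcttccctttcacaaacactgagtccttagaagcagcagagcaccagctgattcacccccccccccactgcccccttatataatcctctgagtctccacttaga
Oas1a: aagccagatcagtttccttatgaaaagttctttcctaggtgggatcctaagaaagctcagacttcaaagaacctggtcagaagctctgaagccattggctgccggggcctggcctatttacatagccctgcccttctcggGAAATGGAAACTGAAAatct
Rsad2: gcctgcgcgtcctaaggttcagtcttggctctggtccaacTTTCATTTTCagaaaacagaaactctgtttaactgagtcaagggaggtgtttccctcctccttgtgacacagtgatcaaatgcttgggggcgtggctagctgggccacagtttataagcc
Bst2: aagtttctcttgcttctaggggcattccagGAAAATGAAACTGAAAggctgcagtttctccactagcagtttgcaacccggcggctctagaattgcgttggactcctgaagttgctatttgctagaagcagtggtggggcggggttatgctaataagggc
Cxcl10: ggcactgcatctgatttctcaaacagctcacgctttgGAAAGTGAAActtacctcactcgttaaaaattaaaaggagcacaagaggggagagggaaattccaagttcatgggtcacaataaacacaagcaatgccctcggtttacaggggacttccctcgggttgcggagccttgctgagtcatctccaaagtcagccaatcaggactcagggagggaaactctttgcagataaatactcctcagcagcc

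The Isg15 stretch (chr4:156200819-156200978, minus strand) held 3 overlapping matches that began 78, 72 and 66 bases before the start and shared their flanking GAAA units. Ifit1 (chr19:34640729-34640870, plus strand) carried matches 104 and 85 bases before its RefSeq start, and Ifit3 (chr19:34583369-34583528, plus strand) carried the same 2 forms, GAAAGTGAAA and GAAACTGAAA, 156 and 122 bases before its own. In Oas1a (chr5:120907526-120907685, minus strand) the matches lay 20 and 14 bases before the start. A single match stood 120 bases before the start of Rsad2 (chr12:26456453-26456612, minus strand), and 2 overlapping ones began 130 and 124 bases before that of Bst2 (chr8:71537473-71537632, minus strand). Cxcl10 (chr5:92348890-92349139, minus strand) held 1 match, 213 bases before the start. These matches describe letters only, and members without one in this window included some that responded to LPS as strongly, such as Oasl1.

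The level of a gene is given below as CPM, its counts scaled to a common library total with TMM factors that even out library composition. Differences are fitted log2 fold changes ± SE from edgeR's quasi-likelihood test with a term for the batch, with Benjamini-Hochberg adjusted p over all 13729 genes and a threshold of 0.05. The library WT medium 18 stood apart from the other WT medium libraries in these genes. The mean log2 CPM of the 46 members was 3.63 in WT medium 16 and 3.81 in WT medium 17 but 4.69 in WT medium 18, near the 4.77, 4.75 and 5.03 of Scnn1b-Tg medium 17, 18 and 19. After LPS the means were 5.47, 5.99 and 6.12 in WT 16, 17 and 18, and 6.36, 6.09 and 6.51 in Scnn1b-Tg 17, 18 and 19. Every LPS library thus lay above every medium library, and the WT medium pools were the most spread.

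**Figure D1:**
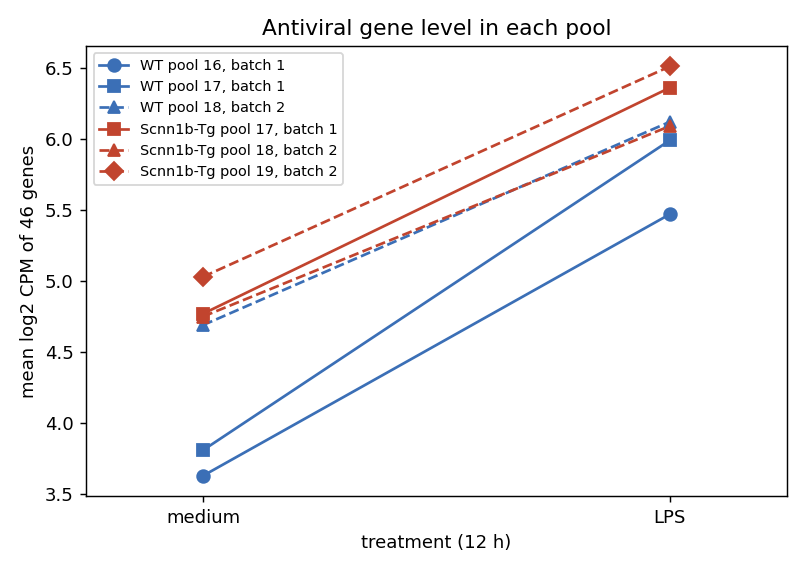
Mean log2 CPM of the 46 antiviral genes (y axis) in medium and LPS (x axis), 1 line per pool, blue for WT and red for Scnn1b-Tg, solid for batch 1 and dashed for batch 2. WT 16 and WT 17 start at 3.63 and 3.81 in medium while the other 4 pools start between 4.69 and 5.03, and all 6 lines rise with LPS.

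LPS raised most of the antiviral genes in both genotypes. In WT AMs 42 of 46 members rose and none fell, whereas 15.2% of all genes tested rose, and the median log2 fold change was 1.43 over the members and 0.00 over all genes. In Scnn1b-Tg AMs 38 members rose and 1 fell, against 18.8% of all genes that rose and 17.8% that fell, with a median of 1.12 over the members and -0.02 over all genes. With a term per pool, which pairs the medium and LPS library of a pool, the counts were 43 higher in WT, against 2474 of all 13729 genes, and 41 higher and 1 lower in Scnn1b-Tg, where 21.4% of all genes were higher. In every pool at least 44 members were higher with LPS than in medium, and the median change per pool lay between 1.06 in Tg 18 and 1.82 in WT 17. Leaving out a single library gave 40 to 43 calls in WT, where Adar and Epsti1 were the ones lost, and 28 to 41 in Scnn1b-Tg, with 28 without Scnn1b-Tg LPS 17, 31 without medium 18 and 31 without LPS 19. Those lost in Scnn1b-Tg were Adar, Ddx58, Dhx58, Dtx3l, Ifi204, Ifit2, Lgals3bp, Mx1, Mx2, Oasl2 and Slfn8. For fits without a library the share of all genes called is not given here. In bulk RNA a higher level in each cell and a larger share of cells that express a gene cannot be told apart.

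**Figure D2:**
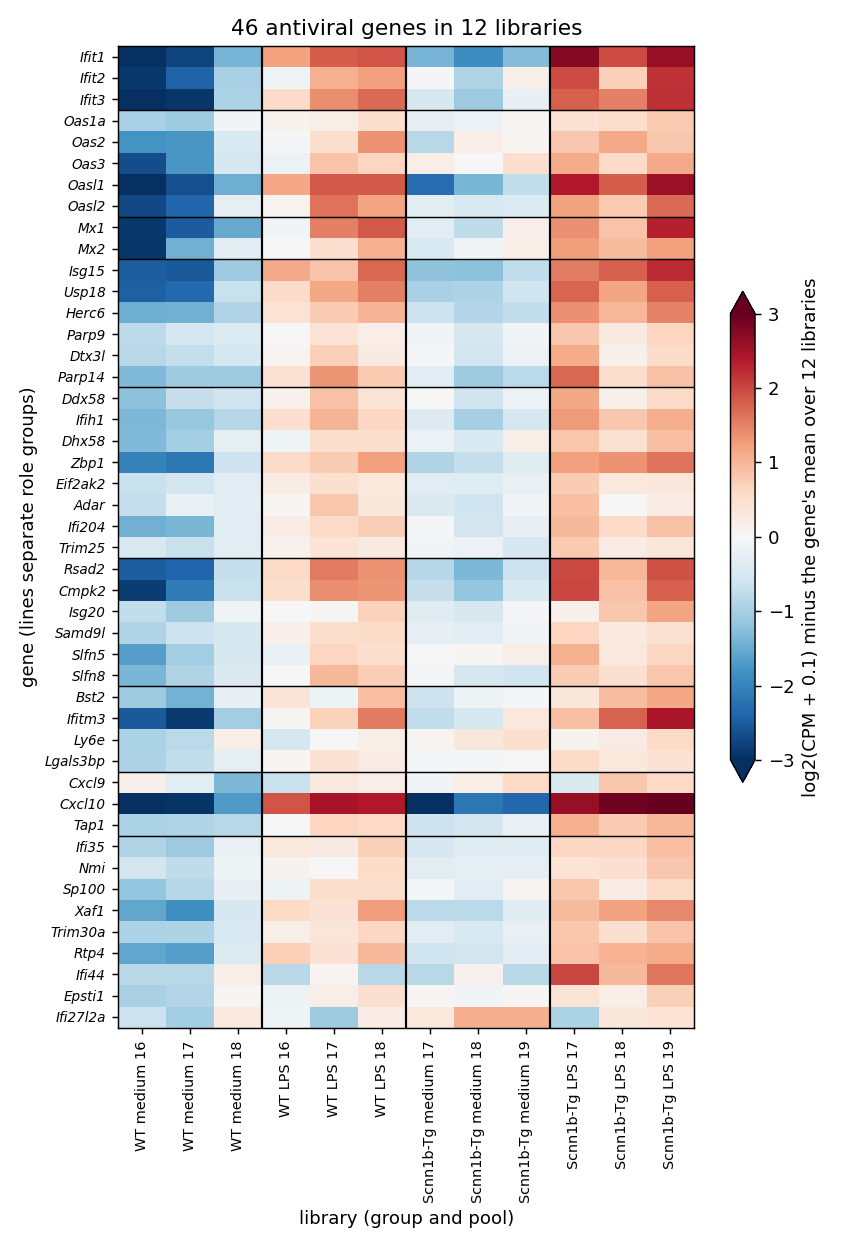
Level of each of the 46 genes (rows, by role) in the 12 libraries (columns), as log2 of CPM plus 0.1 minus the gene's own mean over the libraries, so red is above and blue below that mean. Most rows turn from blue in medium to red in LPS, WT medium 16 and 17 hold the deepest blue, and Cxcl9 and Ifi27l2a do not follow the pattern.

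The IFIT proteins, which bind viral RNA that lacks the host's cap marks, gave some of the largest responses, and their genes lie side by side on chromosome 19. Ifit1 (chr19:34640871-34650009) had 5.87, 9.94 and 26.1 CPM in WT medium 16, 17 and 18 and 160, 244 and 254 in WT LPS. In Scnn1b-Tg 17, 18 and 19 it had 26.2, 18.9 and 28 CPM in medium and 463, 269 and 425 in LPS. The treatments did not overlap in either genotype, and the log2 fold changes were 4.05 ± 0.48 in WT (adjusted p = 8.45e-05, edgeR) and 4.00 ± 0.47 in Scnn1b-Tg (adjusted p = 6.28e-05).

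Ifit3 read 4.32, 6.44 and 25.2 CPM in WT medium and 72.7, 130 and 160 in WT LPS, and its Scnn1b-Tg values were 35, 23 and 41.5 in medium and 169, 141 and 223 in LPS. It rose by 3.51 ± 0.52 in WT (adjusted p = 4.39e-04) and by 2.40 ± 0.49 in Scnn1b-Tg (adjusted p = 0.00277). The third family member, Ifit2, was much lower, with 1.56, 2.22 and 6.19 CPM in WT medium, 11.5, 25.8 and 29 in WT LPS, 12, 6.56 and 13.9 in Scnn1b-Tg medium and 48.3, 20.1 and 55.4 in Scnn1b-Tg LPS. Its rise was called in WT (2.79 ± 0.57, adjusted p = 0.00335) and in Scnn1b-Tg (1.94 ± 0.53, adjusted p = 0.015). The Scnn1b-Tg call of Ifit2 was lost without Scnn1b-Tg medium 18, LPS 17 or LPS 19 (adjusted p = 0.057, 0.085 and 0.0534). For all 3 genes WT medium 18 held the highest WT medium value, within or next to the range of Scnn1b-Tg medium.

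OAS proteins sense double-stranded RNA, and the enzymatically active ones make linked oligoadenylates that activate RNase L. All 5 genes of the OAS and OAS-like group rose in WT and 4 of 5 in Scnn1b-Tg. Oas1a (chr5:120896256-120907521), the member of this family with the highest level per kilobase of exon, had 147, 139 and 275 CPM in WT medium and 310, 326 and 411 in WT LPS. In Scnn1b-Tg its values were 244, 258 and 295 in medium and 390, 418 and 498 in LPS. These are modest rises, of 0.94 ± 0.15 in WT (adjusted p = 8.05e-04) and 0.71 ± 0.15 in Scnn1b-Tg (adjusted p = 0.00374).

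Oasl1 (chr5:114923240-114937915), whose product restrains translation of Irf7, moved far more. It had 2.76, 3.91 and 8.92 CPM in WT medium and 55.8, 88.8 and 89.7 in WT LPS, then 5.03, 9.53 and 14.8 in Scnn1b-Tg medium and 133, 88.6 and 149 in Scnn1b-Tg LPS. The log2 fold changes were 4.02 ± 0.41 (adjusted p = 3.02e-05) and 3.78 ± 0.40 (adjusted p = 2.92e-05), about as large as those of Ifit1. Oas2 and Oasl2 rose in both genotypes, by 1.96 and 2.68 in WT and by 1.16 and 1.65 in Scnn1b-Tg. Oas3 rose in WT by 1.97 ± 0.43 (adjusted p = 0.00533) and had a difference of 0.72 ± 0.41 in Scnn1b-Tg (adjusted p = 0.207), where its medium values of 114, 100 and 141 CPM stood above the 15.6, 29.5 and 69.5 of WT medium.

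The MX GTPases trap viral nucleocapsids, and the Mx1 allele of C57BL/6 mice is known to be defective. Mx1 (chr16:97447035-97462907) had 0.0537, 0.102 and 0.301 CPM in WT medium, 0.978, 3.17 and 4 in WT LPS, 0.822, 0.571 and 1.18 in Scnn1b-Tg medium and 2.85, 1.98 and 5.65 in Scnn1b-Tg LPS. Its WT medium values rest on 3, 5 and 15 deposited counts, and the rises of 4.19 ± 0.65 in WT (adjusted p = 6.22e-04) and 2.00 ± 0.54 in Scnn1b-Tg (adjusted p = 0.0145) start from that low level. Mx2 had 0.179, 0.672 and 1.59 CPM in WT medium, 1.98, 2.9 and 4.32 in WT LPS, 1.42, 1.9 and 2.3 in Scnn1b-Tg medium and 4.95, 3.98 and 4.86 in Scnn1b-Tg LPS, with log2 fold changes of 2.02 ± 0.47 (adjusted p = 0.00725) and 1.37 ± 0.44 (adjusted p = 0.0318). Both genes stayed under 6 CPM in every library. Their Scnn1b-Tg calls were lost when either Scnn1b-Tg medium 18, LPS 17 or LPS 19 was left out (adjusted p = 0.0586, 0.0574 and 0.0654 for Mx1, and 0.0971, 0.18 and 0.0524 for Mx2), and that of Mx2 also without medium 17 or medium 19 (0.0812 and 0.0742).

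The ISG15 system attaches a ubiquitin-like protein to other proteins, with HERC6 as the ligase and USP18 as the protease that also silences the interferon receptor. All 6 members of the group, which includes the PARP9-DTX3L complex and PARP14, rose in both genotypes. Isg15 (chr4:156199424-156200818) had 15.9, 15.3 and 41.4 CPM in WT medium, 195, 160 and 295 in WT LPS, 38.2, 37.8 and 52.9 in Scnn1b-Tg medium and 256, 306 and 420 in Scnn1b-Tg LPS. It rose by 3.24 ± 0.25 (adjusted p = 3.90e-06) and 2.90 ± 0.24 (adjusted p = 5.26e-06).

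Usp18 had 9.24, 9.98 and 32.2 CPM in WT medium, 75.3, 113 and 146 in WT LPS, 25.8, 26.6 and 33.6 in Scnn1b-Tg medium and 170, 116 and 177 in Scnn1b-Tg LPS. In both genes WT medium 18 lay inside the Scnn1b-Tg medium range while WT medium 16 and 17 lay under it. The log2 fold changes of Usp18 were 2.80 ± 0.38 in WT (adjusted p = 2.34e-04) and 2.47 ± 0.37 in Scnn1b-Tg (adjusted p = 3.65e-04). Herc6 and Parp14 rose by about as much in one genotype as in the other (2.01 and 2.02 in WT, 2.04 and 1.81 in Scnn1b-Tg), while Parp9 and Dtx3l, which overlap on opposite strands of chromosome 16 and were counted without strand, rose by 0.77 and 1.06 in WT and by 0.80 and 0.90 in Scnn1b-Tg.

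The sensing and editing genes code for the RNA helicases RIG-I (Ddx58), MDA5 (Ifih1) and LGP2 (Dhx58), the Z-nucleic acid sensor ZBP1, the kinase PKR (Eif2ak2), the RNA editor ADAR, the DNA-binding protein IFI204 and the RIG-I cofactor TRIM25. All 8 rose in both genotypes, by 0.75 to 2.41 in WT and 0.73 to 2.07 in Scnn1b-Tg. Zbp1 (chr2:173206612-173218923) moved most, with 30.9, 28.2 and 82.6 CPM in WT medium, 189, 214 and 297 in WT LPS, 67.7, 76.5 and 97.3 in Scnn1b-Tg medium and 297, 319 and 390 in Scnn1b-Tg LPS. Its log2 fold changes were 2.41 ± 0.24 (adjusted p = 2.83e-05) and 2.07 ± 0.24 (adjusted p = 5.46e-05). Dhx58 had 36.9, 45.5 and 76.7 CPM in WT medium, 85.1, 131 and 130 in WT LPS, 82.5, 67.6 and 105 in Scnn1b-Tg medium and 166, 127 and 174 in Scnn1b-Tg LPS, so that Scnn1b-Tg medium overlapped WT LPS. It rose by 1.15 ± 0.26 in WT (adjusted p = 0.00586) and 0.89 ± 0.25 in Scnn1b-Tg (adjusted p = 0.0186, and 0.1 without Scnn1b-Tg LPS 17, 0.0728 without medium 18 and 0.054 without LPS 19). Ifih1 rose by 1.83 in WT and 1.70 in Scnn1b-Tg, Ddx58 by 1.30 and 0.91, and Ifi204 by 1.51 and 1.09. The smallest rises of this group, in Trim25, Adar and Eif2ak2, lay between 0.73 and 0.85 in both genotypes.

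Viperin (Rsad2) makes a chain-terminating nucleotide, and Cmpk2, its neighbour on chromosome 12 in the opposite orientation, supplies the substrate. Rsad2 (chr12:26442746-26456452) had 8.09, 8.66 and 28 CPM in WT medium, 68.5, 135 and 116 in WT LPS, 25.1, 17.9 and 29.4 in Scnn1b-Tg medium and 181, 90.4 and 172 in Scnn1b-Tg LPS. It rose by 2.92 ± 0.49 (adjusted p = 9.91e-04) and 2.64 ± 0.47 (adjusted p = 0.00126), and Cmpk2 by 2.79 and 2.41. Slfn8, a Schlafen protein of the group that cleaves or binds tRNA, had 23.9, 33.2 and 45.7 CPM in WT medium, 62.7, 124 and 103 in WT LPS, 59.9, 44.6 and 41.3 in Scnn1b-Tg medium and 106, 86.4 and 111 in Scnn1b-Tg LPS. Its rises were 1.50 ± 0.28 (adjusted p = 0.00215) and 1.06 ± 0.28 (adjusted p = 0.0123, and 0.0512 to 0.0554 without Scnn1b-Tg medium 18, medium 19 or LPS 17). The exonuclease gene Isg20 rose by 0.89 and 1.01 and Samd9l by 1.08 and 0.69, while Slfn5 rose by 1.35 ± 0.30 in WT and differed by 0.64 ± 0.30 in Scnn1b-Tg (adjusted p = 0.124, and 0.0239 with the pairing by pool).

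The membrane and secreted members included the 2 genes with the highest levels of the list. Per kilobase of exon, Lgals3bp, a secreted glycoprotein, averaged 317 CPM over the 12 libraries, Bst2, the tetherin that holds budding virus at the cell surface, averaged 284, Isg15 averaged 202, Oas1a averaged 164 and Ly6e averaged 147. Lgals3bp had 456, 518 and 706 CPM in WT medium, 908, 1160 and 1030 in WT LPS, 846, 825 and 865 in Scnn1b-Tg medium and 1280, 1070 and 1170 in Scnn1b-Tg LPS. Its rise was 0.89 ± 0.15 in WT (adjusted p = 9.82e-04) and 0.47 ± 0.15 in Scnn1b-Tg (adjusted p = 0.0274), a call that was lost without any single Scnn1b-Tg library other than LPS 18 (adjusted p = 0.0532 to 0.142). Bst2 (chr8:71534255-71537456) had 107, 83.9 and 191 CPM in WT medium, 295, 202 and 421 in WT LPS, 146, 204 and 217 in Scnn1b-Tg medium and 284, 428 and 500 in Scnn1b-Tg LPS, with rises of 1.30 ± 0.15 (adjusted p = 9.38e-05) and 1.07 ± 0.15 (adjusted p = 2.64e-04). In both genotypes and treatments the lowest Bst2 value belonged to the pool numbered 17.

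Ifitm3 (chr7:141009586-141010770), which stops virus fusion at endosomes, had 2.74, 2.12 and 7.82 CPM in WT medium and 16.7, 26.1 and 47.8 in WT LPS. In Scnn1b-Tg it had 9.7, 11.2 and 20.1 CPM in medium and 30.2, 55.4 and 89.1 in LPS, and pool 19 was the highest in both treatments. It rose by 2.92 ± 0.31 in WT (adjusted p = 4.01e-05) and by 2.00 ± 0.29 in Scnn1b-Tg (adjusted p = 2.86e-04). Ly6e, a surface protein that restricts coronavirus fusion, was called in neither genotype, with differences of 0.41 ± 0.18 in WT (adjusted p = 0.127, and 0.0419 with the pairing by pool) and 0.02 ± 0.18 in Scnn1b-Tg (adjusted p = 0.96).

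The interferon-induced chemokines bind CXCR3 and draw T cells. Cxcl10 (chr5:92346638-92348889) gave the largest rise of the list in both genotypes. It had 0.483, 0.509 and 1.35 CPM in WT medium, 17.2, 26.1 and 24.9 in WT LPS, 0.359, 0.951 and 0.822 in Scnn1b-Tg medium and 28.8, 35.3 and 43.5 in Scnn1b-Tg LPS. Its log2 fold change was 4.96 ± 0.29 in WT (adjusted p = 6.72e-07) and 5.71 ± 0.30 in Scnn1b-Tg (adjusted p = 1.90e-07). The neighbouring Cxcl9, known as a target of interferon gamma, stayed between 0 and 0.342 CPM in every library and was called nowhere. Its values were 0.179, 0.102 and 0 CPM in WT medium, 0.0599, 0.208 and 0.189 in WT LPS, 0.137, 0.19 and 0.28 in Scnn1b-Tg medium and 0.088, 0.342 and 0.285 in Scnn1b-Tg LPS, at most 18 deposited counts, and no difference was detectable at this depth. Tap1, a subunit of the peptide transporter that loads MHC class I, had 22, 22.7 and 24 CPM in WT medium, 42.7, 67.2 and 64.4 in WT LPS, 27.7, 29.3 and 36.5 in Scnn1b-Tg medium and 89.1, 72.6 and 85.5 in Scnn1b-Tg LPS, and rose by 1.34 ± 0.17 (adjusted p = 1.35e-04) and 1.41 ± 0.17 (adjusted p = 6.85e-05).

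Of the 9 nuclear, adaptor and other members, 7 rose in WT, and 5 rose and 1 fell in Scnn1b-Tg. Ifi35, a partner of NMI, had 71.3, 62.6 and 113 CPM in WT medium, 165, 159 and 218 in WT LPS, 92.6, 102 and 102 in Scnn1b-Tg medium and 205, 204 and 247 in Scnn1b-Tg LPS, a rise of 1.15 ± 0.14 in either genotype. Xaf1, a proapoptotic zinc finger protein, had 20.2, 16.5 and 42.7 CPM in WT medium, 89.6, 80.4 and 143 in WT LPS, 33.8, 33.8 and 46.2 in Scnn1b-Tg medium and 116, 137 and 162 in Scnn1b-Tg LPS, and rose by 2.03 ± 0.21 and 1.86 ± 0.21. Rtp4 had 42.7, 40.2 and 94.5 CPM in WT medium, 208, 169 and 247 in WT LPS, 83.8, 85.5 and 98.8 in Scnn1b-Tg medium and 227, 258 and 272 in Scnn1b-Tg LPS, with rises of 1.88 ± 0.20 and 1.49 ± 0.20. In Xaf1 and Rtp4 the value of WT medium 18 was again at the level of Scnn1b-Tg medium. Nmi and Trim30a rose in both genotypes, by 0.71 and 1.16 in WT and by 0.86 and 1.06 in Scnn1b-Tg. Sp100 and Epsti1 rose in WT, by 1.05 and 0.75, and differed by 0.64 (adjusted p = 0.0635) and 0.46 (adjusted p = 0.126) in Scnn1b-Tg, where the pairing by pool called both (adjusted p = 0.00364 and 0.0246).

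Ifi44 was at or near 0 outside Scnn1b-Tg LPS. It was listed at 0, 0 and 5 counts in WT medium, 0, 5 and 0 in WT LPS and 0, 5 and 0 in Scnn1b-Tg medium, and at 35, 13 and 23 in Scnn1b-Tg LPS, which is 0.616, 0.247 and 0.436 CPM. The Scnn1b-Tg LPS libraries did not overlap the others, but the test in Scnn1b-Tg gave adjusted p = 0.0665 (edgeR), and it was called without Scnn1b-Tg medium 18 (adjusted p = 0.049), with the pool as a random effect (0.0118) and in a fit of both Scnn1b-Tg groups alone (0.0378). The single member that fell was Ifi27l2a (chr12:103442167-103443680), the shortest gene of the list with 463 bp of exon and named for its direction after its values were seen. It had 24.2, 41 and 41.1 CPM in Scnn1b-Tg medium and 10, 24.6 and 25.6 in Scnn1b-Tg LPS, lower with LPS in all 3 pools, and fell by 0.89 ± 0.22 on the log2 scale (adjusted p = 0.00801). In WT it had 12.3, 9.53 and 23.6 CPM in medium and 17.7, 9.13 and 22.6 in LPS, a difference of 0.17 ± 0.22 (adjusted p = 0.607). The call in Scnn1b-Tg was lost without a batch term and without both libraries of Tg 17.

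Counting without strand also means that reads of a member and of a gene that overlaps it could not be told apart by strand, which touches Cxcl10 (Art3), Tap1 (Psmb9), Dhx58 (Dhx58os), Slfn5 (Slfn5os), Parp9 and Dtx3l with each other, and 9 other members, 15 in all. Several members also have close relatives, such as Ifit3b for Ifit3, Oas1g for Oas1a and Slfn9 for Slfn8, and how reads were split between such copies was not tested.

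**Figure D3:**
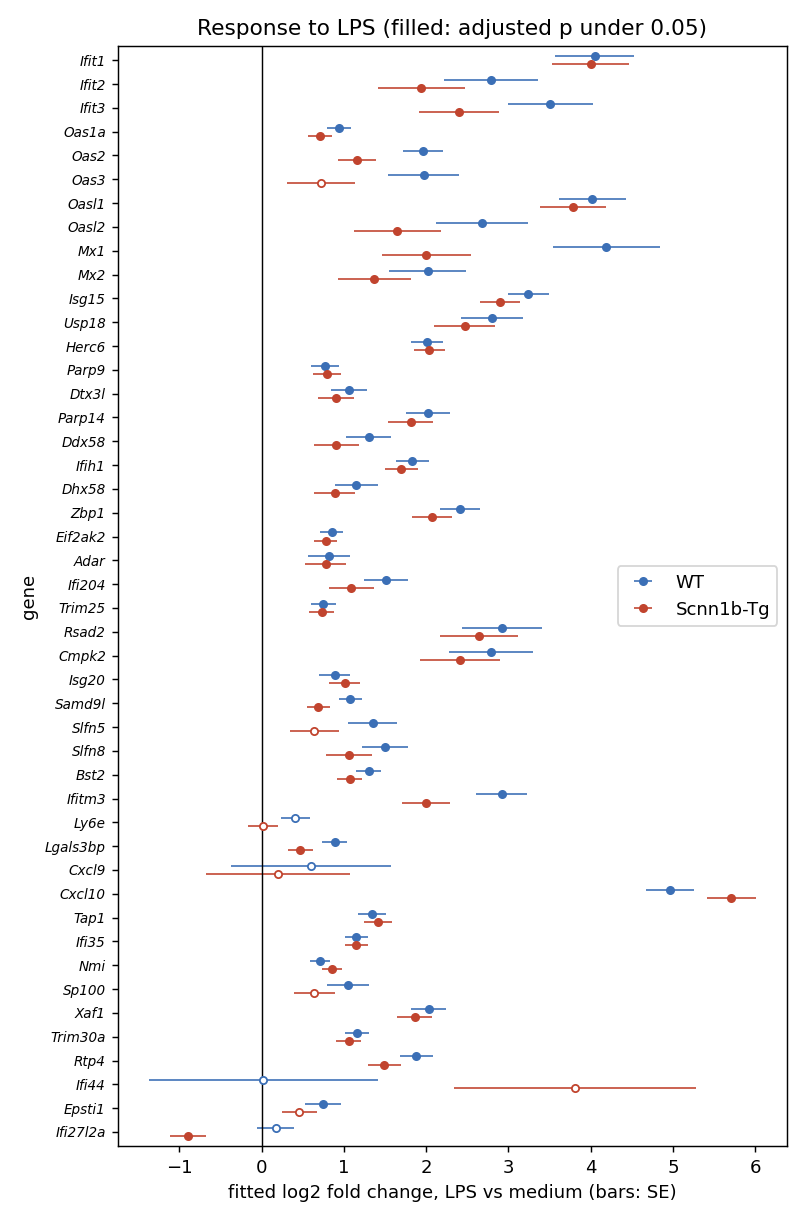
Fitted log2 fold change of LPS against medium (x axis, bars 1 SE) for the 46 genes (y axis), blue for WT and red for Scnn1b-Tg, filled where adjusted p is under 0.05. Cxcl10 lies furthest to the right at 4.96 and 5.71, most red points lie at or left of their blue partner, and Ifi27l2a in Scnn1b-Tg is the single filled point left of 0.

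Whether the genotypes answered LPS to a different extent was tested as the difference of both responses. No member was called (edgeR), and neither was any of the other genes (0% of all tested). At an unadjusted p under 0.05 there were 4 members, against 5.79% of all genes, and 12 members with a term per pool, while DESeq2 called 0 members, against 0.561% of all genes, and had 4 at that unadjusted level. For the fit with a term per pool and for DESeq2 the share of all genes at the unadjusted level was not counted. The 4 were Ifi27l2a (-1.06 ± 0.31), Mx1 (-2.19 ± 0.83), Oas2 (-0.80 ± 0.33) and Ifitm3 (-0.92 ± 0.41), all with the lower signed response in Scnn1b-Tg, which for Ifi27l2a was a fall and for the other 3 a smaller rise. Fitted differences were negative in 39 members and positive in 7, with a median of -0.31 that ranged from -0.08 without the WT 17 pool to -0.65 without the library WT medium 18. The comparison shares its WT medium libraries with the genotype comparison in medium, so its sign is not separate information. Per pool, the log2 change of Mx1 was 3.48, 4.53 and 3.58 in WT 16, 17 and 18 and 1.75, 1.73 and 2.23 in Scnn1b-Tg 17, 18 and 19. Its WT medium values rest on 3, 5 and 15 deposited counts, and the adjusted p of its difference was 0.772 (edgeR). Ifit1 gave near-equal responses of 4.05 and 4.00, and Cxcl10 went the other way (0.74, unadjusted p = 0.0874 from edgeR).

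The level of these genes in resting cells was compared between Scnn1b-Tg and WT in medium. No member passed the test in edgeR, which called 0.262% of all genes, while DESeq2, which called 3.72% of the genes it gave an adjusted p, called 8 members, all higher in Scnn1b-Tg, namely Ifi27l2a, Ifitm3, Lgals3bp, Ly6e, Mx1, Oas2, Oas3 and Slfn5. At an unadjusted p under 0.05 edgeR had 25 of the 46 members, against 1784 of all 13729 genes, and the fitted difference was positive in 44 members with a median of 0.58, against 0.01 over all genes. The lowest adjusted p belonged to Ifitm3, 1.48 ± 0.30 higher in Scnn1b-Tg (adjusted p = 0.0886), followed by Ifi27l2a with 0.96 ± 0.22 (adjusted p = 0.114) and Lgals3bp with 0.57 ± 0.15 (adjusted p = 0.152). Larger but more variable differences were 2.37 in Mx1, 1.69 in Ifit2, 1.60 in Oas3 and 1.49 in Ifit3. In 11 members all 3 Scnn1b-Tg medium values lay above all 3 WT medium values, as in 9.02% of all genes. These were Ifit2, Oas3, Mx1, Herc6, Samd9l, Slfn5, Ifitm3, Lgals3bp, Tap1, Trim30a and Ifi27l2a.

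The size of this difference depended on the pools compared. Within batch 1, where Tg 17 stands against WT 16 and WT 17, the median member was 0.95 higher in Scnn1b-Tg on the log2 CPM scale and 45 of 46 were higher. Within batch 2, where Tg 18 and Tg 19 stand against WT 18 alone, the median was 0.11 and 29 of 46 were higher. Over all genes both medians were near zero (0.01 and 0.00). Ifitm3 differed by 1.99 in batch 1 and 0.94 in batch 2, Mx1 by 2.93 and 1.34 and Oas3 by 2.41 and 0.78, whereas Ifit1 differed by 1.77 and -0.18 and Isg15 by 1.29 and 0.11. Leaving out the library WT medium 18 gave a median difference of 0.92, with 39 members at an unadjusted p under 0.05 and 1 called, Zbp1, while leaving out both libraries of Tg 17 gave 0.29, with 7 members at that level and 0 called. For these fits the share of all genes at the unadjusted level was not counted, so the member counts have no background beside them. Batch 1 holds Scnn1b-Tg and batch 2 holds WT in a single pool, so within a batch genotype and pool cannot be told apart.

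In LPS the genotypes lay closer. No member was called by edgeR, in a comparison that called 0.0510% of all genes, nor by DESeq2 (1.06% of all genes), and 4 members by edgeR and 3 by DESeq2 had an unadjusted p under 0.05, against 6.78% of all genes with edgeR. The 4 were Tap1 (0.48 ± 0.17), Herc6 (0.50 ± 0.18), Ifi44 (at or under 5 counts in WT LPS) and Parp9 (0.40 ± 0.17), all higher in Scnn1b-Tg. The median difference was 0.31, against 0.00 over all genes, and 4 members had Scnn1b-Tg LPS wholly above WT LPS, as did 5.72% of all genes. Within batches the medians were 0.55 in batch 1 and 0.10 in batch 2. The median was 0.03 without the library Scnn1b-Tg LPS 17 and -0.08 without both libraries of Tg 17, and without the WT 18 pool it was 0.48.

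The antiviral genes varied more between pools of one group than most genes did. Over the 4 groups the mean SD of log2 CPM had a median of 0.39 over the members and 0.22 over all genes tested, and 38 of 46 members lay above the latter. The excess was largest in WT medium, with a median SD of 0.62 over members against 0.18 over all genes, a level that 11.8% of all genes passed. It was 0.38 against 0.24 in WT LPS, 0.26 against 0.18 in Scnn1b-Tg medium and 0.30 against 0.23 in Scnn1b-Tg LPS. In WT medium the highest pool held a median of 2.24 times the lowest, and 5.83 times for Ifit3, 8.86 times for Mx2 and 5.35 times for Oasl2. Apart from Cxcl9 and Ifi44, whose spread rests on few counts, the members with the largest mean SD were Mx1 (0.82), Ifit2 (0.78) and Ifitm3 (0.77). The steadiest were Eif2ak2 (0.16), Lgals3bp (0.17) and Samd9l (0.18).

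**Figure D4:**
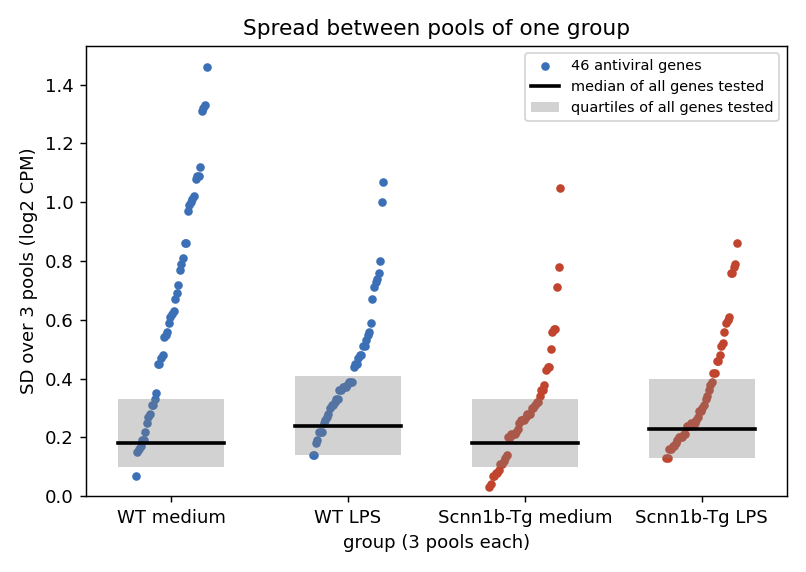
SD of log2 CPM over the 3 pools of each group (y axis) for each of the 46 antiviral genes (points, in rank order, blue for WT and red for Scnn1b-Tg), with the median and quartiles of all genes tested as a line and grey band. The members' median of 0.62 in WT medium lies well above the all-gene median of 0.18, and the distance is smaller in the other groups.

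The order of the pools was shared by most members. In WT medium pool 18 was the highest in 44 of 46 members and pool 16 the lowest in 33, where each held that place in 33.7% and 31.7% of all genes. In WT LPS pool 16 was the lowest in 39 and the highest in 0 members, against 31% and 27.3% of all genes. Pools 18 and 17 were highest there in 25 and 21 members, against 30.2% and 42.5% of all genes, so the count of pool 17 was near its share. In Scnn1b-Tg pool 19 was the highest in 31 members in medium and 25 in LPS, against 28.6% and 27.1% of all genes. Pool 18 was the lowest in 26 and 32, against 33.8% and 36%. WT medium 18 exceeded the mean of WT medium 16 and 17 in 45 of 46 members, by a median of 0.99 on the log2 scale. Its median difference from the mean of the Scnn1b-Tg medium pools was -0.09, with 17 of 46 members higher in WT medium 18.

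Pools were also tested directly. In a fit with a term per pool, 22 of 46 members differed between the pools of one genotype or the other (4 degrees of freedom), against 14.3% of all genes. By role these were 7 of 9 nuclear, adaptor and other members, 4 of 6 of the ISG15 group, 3 of 4 membrane and secreted members, 3 of 8 sensing genes, 2 of 3 IFIT and 2 of 5 OAS genes and 1 of 2 MX genes, and none of the restriction or chemokine groups. The lowest adjusted p were those of Bst2 (0.0116), Xaf1 (0.0137), Ifi27l2a (0.016), Ifitm3 (0.0188) and Isg15 (0.0191), all edgeR. DESeq2 called 37 members, against 3634 of the 12132 genes with an adjusted p (30%). Leaving out 1 library at a time gave 4 to 18 calls, with 13 without WT medium 18 and 4 without Scnn1b-Tg LPS 17 or Scnn1b-Tg LPS 18. The shares of all genes called in these fits are not given here.

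This test includes the batch, because the pools of a genotype fall into both batches. Between pools of one batch no member was called by edgeR. WT 17 against WT 16 gave 17 members at an unadjusted p under 0.05, against 26.9% of all genes, 0 adjusted calls, against 0.0364% of all genes, and 12 calls in DESeq2, against 19.8% of all genes with an adjusted p. Tg 19 against Tg 18 gave 14 members at that unadjusted level, against 10.1% of all genes, 0 adjusted calls, against 0.0656%, and 3 calls in DESeq2, against 1.55% of all genes with an adjusted p. Members were on the whole higher in WT 17 than WT 16 (37 of 46, median 0.35) and in Tg 19 than Tg 18 (43 of 46, median 0.31). Mx1 was 1.51 higher in WT 17 (adjusted p = 0.0613) and 1.30 higher in Tg 19 (adjusted p = 0.223), and Bst2 was the reverse in WT, where it fell by 0.45 in pool 17 (adjusted p = 0.0596).

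Between batches 14 of 46 members were higher in batch 2 and none lower, against 4.15% of all genes that were higher. They were Bst2 (0.75, adjusted p = 0.00566), Ifi27l2a (0.98, adjusted p = 0.00795), Ifitm3 (1.18, adjusted p = 0.00957), Oas2 (0.89), Xaf1 (0.64), Isg15 (0.72), Isg20 (0.60), Ly6e (0.54), Zbp1 (0.67), Oas1a (0.44), Nmi (0.33), Ifi35 (0.37), Rtp4 (0.49) and Cxcl10 (0.68). These genes were short, with a median exon length of 1943 bp against 4603.5 bp for the other 32 members. The batch difference fell with exon length over the members (Spearman correlation -0.65, n = 46) and over all genes (-0.36, n = 13544), a description over genes that share the same 12 libraries. The trend was not one of batches alone, since WT 17 against WT 16, both of batch 1, gave correlations of 0.47 over members and 0.40 over all genes. Genes of at most 1000 bp stood against those of at least 7000 bp at -0.24 and -0.43 (median log2 CPM difference, in medium and in LPS) in WT 17 and -0.18 and -0.40 in Tg 17, but at 0.17 and 0.25 in WT 16 and between -0.04 and 0.36 in the libraries of batch 2. All genes under 1000 bp had a median batch difference of 0.21 and those over 10000 bp of -0.15.

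**Figure D5:**
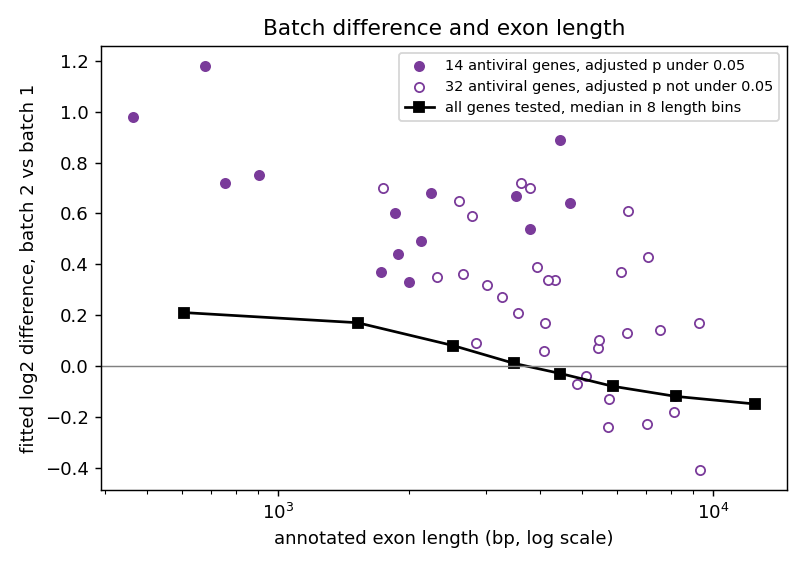
Fitted log2 difference of batch 2 against batch 1 (y axis) by annotated exon length in bp (x axis, log scale) for the 46 antiviral genes, filled where adjusted p is under 0.05, with the median of all genes tested in 8 length bins as squares. Members lie mostly above the line, and the filled ones cluster at short lengths.

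When a smooth trend on exon length was taken out of each library, an alternative chosen after seeing the data, 7 of the 14 members kept the batch call and 15 instead of 22 differed between pools. The median pool SD was then 0.36 over members and 0.20 over all genes, and WT medium 18 (4.66) still stood above WT medium 16 and 17 (3.60 and 3.78) in mean log2 CPM. Without both libraries of WT 18, or of Tg 17, no member was called between batches. Leaving out either pool removes the sole pool of its genotype in its batch, so batch and pool cannot be told apart here.

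The other genes of the pathway were read from a list of 57, of which 34 could be tested. With LPS 20 of these rose and 5 fell in WT, and 21 rose and 3 fell in Scnn1b-Tg. Over all genes 15.2% rose and 15.7% fell in WT, and 18.8% rose and 17.8% fell in Scnn1b-Tg. The ligands that had an entry were nearly absent at 12 h. Ifnb1 held 5 counts in WT LPS 18 and 5 and 7 in Scnn1b-Tg LPS 17 and 18 and was at 0 in the other libraries. Ifna4 held 5 counts in WT LPS 18 and 3 in Scnn1b-Tg LPS 18 and was otherwise at 0. Neither these nor Ifnk, Ifne and Ifnz exceeded 8 counts in any library, the worth of about 3 reads. The other interferon alpha genes on the list, the lambda genes and Ifng were not found by symbol among the 20551 genes. No level can be given for them.

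Both chains of the type I receptor rose with LPS, Ifnar1 by 0.70 in WT and 0.87 in Scnn1b-Tg and Ifnar2 by 0.71 and 0.86, while Ifngr1 fell by 0.39 and 0.36. Of the factors that bind the response elements, Irf9 rose by 0.95 in WT (adjusted p = 5.19e-04) and 0.68 in Scnn1b-Tg (adjusted p = 0.00322), whereas Stat2 differed by 0.57 (adjusted p = 0.0784) and 0.27 (adjusted p = 0.395). Irf7, the factor that amplifies interferon production, had 14.7, 20.5 and 42 CPM in WT medium and 55.6, 46.8 and 72 in Scnn1b-Tg medium, the same standing of WT medium 18 as in the members. It rose to 113, 138 and 175 in WT LPS and 188, 187 and 248 in Scnn1b-Tg LPS, by 2.53 ± 0.27 and 1.83 ± 0.26. The inhibitors Socs1 (2.65 and 3.07) and Socs3 (4.22 and 4.29) rose strongly in both genotypes.

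Upstream of interferon, Cd14 rose by 3.34 in WT and 4.10 in Scnn1b-Tg, and Ikbke by 1.36 and 1.66, while Irf3 was level (-0.03 and -0.07, called in neither). Tlr4 had 34.8, 11.6 and 3.57 CPM in WT LPS 16, 17 and 18, against 40.9 to 50.8 in WT medium and 32.4 to 43.6 in Scnn1b-Tg LPS, and fell by 1.65 ± 0.50 in WT (adjusted p = 0.0284). Cd14 was the single gene of the list called between genotypes in medium, lower in Scnn1b-Tg by -0.79 ± 0.09 (adjusted p = 0.01). The pathway genes showed none of the members' shift in medium, with a median genotype difference of 0.01 over the 34, although Irf7 differed by 1.10 ± 0.26 (adjusted p = 0.119).

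Cell type markers were read as summed CPM. In medium the 10 AM markers summed to 11800 to 12700 in WT and 14000 to 17400 in Scnn1b-Tg, and with LPS to 8560 to 10600 and 10300 to 15400, so the sum was higher in Scnn1b-Tg medium than in WT medium without overlap. Most of it was Chil3, at 9540 to 10300 in WT medium and 11500 to 14400 in Scnn1b-Tg medium. Fabp4 (191 to 270 and 287 to 387), Pparg (121 to 123 and 144 to 160) and Car4 (14.1 to 19.9 and 22.9 to 46) were also higher in Scnn1b-Tg medium without overlap. Siglecf (112 to 121 and 103 to 128), Itgax (381 to 445 and 408 to 538) and Marco (587 to 661 and 382 to 725) overlapped between genotypes, as did Mrc1, Mertk and Ear2. With LPS some of the markers were severalfold lower in both genotypes, Siglecf at 5.08 to 13.5 and Fabp4 at 18 to 36.6, against 191 to 387 for Fabp4 in medium. Pparg, Mrc1, Mertk and Ear2 were lower as well. Marco and Car4 went the other way. Marco was at 1130 to 1350 in WT LPS and 1090 to 2220 in Scnn1b-Tg LPS. Car4 was at 39.6 to 55.5 in WT LPS and 61.7 to 93.3 in Scnn1b-Tg LPS, each above its medium range. The 6 markers of plasmacytoid dendritic cells at hand, a cell type known for interferon, summed to 57.1 to 68.9 in WT medium and 48.7 to 63.8 in Scnn1b-Tg medium, nearly all of it Lair1 with Klk1 at or near 0, and WT medium 18 with 62.3 lay between WT 17 and WT 16. The 8 monocyte markers summed to 8.78 to 10.8 in WT medium and 6.49 to 9.96 in Scnn1b-Tg medium, 8 neutrophil markers to 20.7 to 24.2 and 27.3 to 37.8 with S100a9 and Ngp at 8 counts or fewer in every library, and 6 dendritic cell markers to 112 to 159 and 136 to 155. Most of the monocyte sum was Itgam, at 7.84 to 9.16 in WT medium and 5.41 to 8.86 in Scnn1b-Tg medium. Nearly all of the dendritic cell sum was Cd24a, at 112 to 157 and 135 to 153. The other dendritic cell markers were each at 0.839 CPM or less in medium, so this sum is a reading of Cd24a. The 6 T or NK cell markers reached at most 1.16 in any library. After LPS these sums were 10.5 to 14.3 and 11.1 to 12.8 for monocyte, 15.2 to 17.5 and 16.9 to 22.5 for neutrophil, 85.2 to 91.5 and 86.7 to 111 for dendritic cell and 33.6 to 38.2 and 26.7 to 49 for plasmacytoid markers, in WT and Scnn1b-Tg. The 8 epithelial markers, mainly Scgb1a1 and Sftpc, were at 91.2 to 113 in WT medium and 45.7 to 81 in Scnn1b-Tg medium, and at 84.8 to 126 and 38.6 to 71.5 after LPS. The part of these shifts in the antiviral gene differences was not tested.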

How the data were processed

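RNA of 12 AM libraries was made with the SMART-Seq v4 Ultra Low Input kit and sequenced in pairs of 125 bp reads. Per the study's methods and the submitters' processing notes, the authors ran HISAT2 without strand on mm10 and StringTie on GENCODE annotation, and deposited estimated counts per gene made from StringTie coverage with its prepDE script. Low deposited values pile up at multiples of 2.5 (55.3% of 47985 values from 1 to 30 are 0 or 3 modulo 5), so counting error is larger than the totals show. IDs without a symbol held 0.245% of counts.

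The 46 members and all lists were chosen with earlier results of these data known. Counts as deposited were fitted with edgeR 4.0.16 (R 4.3.3) by the quasi-likelihood test, with TMM factors, filterByExpr (minimum count 10, total 15), the 4 groups and the batch, the label of library preparation that the authors also used in their DESeq2 design. Benjamini-Hochberg adjustment covered all 13729 genes, with a threshold of 0.05. Log2 CPM used a prior count of 2. A second fit had a term per pool and an LPS term per genotype. A trial on simulated counts preceded both.

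The titles' numbers were checked as pairs: deviations from group means of a pool's medium and LPS libraries correlated at 0.19, 0.30 and 0.34 in WT 16, 17 and 18 and at 0.33, 0.20 and 0.14 in Tg 17, 18 and 19. Each was above the correlation of its medium library with the LPS libraries of the other pools of its genotype, so the numbers were taken to pair the libraries. This is a weak check, because deviations from a group mean tie the pools to each other. WT 18 and Tg 17 are each the sole pool of their genotype in their batch, so there pool and batch cannot be told apart. Pools are of separate animals, and p-values of the main fit measure the spread between pools of a group, beside the batch. In the fit with a term per pool they measure how far a pool's medium and LPS libraries depart from a common LPS response of its genotype. The tests between pools thus take a pool's own libraries as replicates.

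Values per library are given for the 2 members of each role with the highest level per kb of exon, the member with the largest LPS response in WT, and the 5 with the largest spread between pools. Any other member given in this way (Oas3 in medium, Ifi27l2a) was chosen after its values were seen, as was Ly6e, given by its mean level and differences. Gene coordinates and exon lengths are of GENCODE vM21 (GRCm38). Alternatives were DESeq2 1.42.0, RLE normalization, no filter, counts divided by 5, no batch term, only the groups compared, pool as a random effect (limma 3.58.1), each library or pool left out, and, added after seeing the data, a trend on exon length removed. No per-sample column was left unused. Some genes of the lists are not reported here.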

Additional observations from a re-analysis of the deposited data

How the results depend on the processing

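With RLE normalization every count of members called was within 1.5 times its reported value. Removing the filter on low counts gave 14 members that differed between pools in place of 22, and dividing counts by 5 gave 3 members called between WT 17 and WT 16. DESeq2 called 8 members between genotypes in medium, 37 between pools, 12 between WT 17 and WT 16 and 3 between Tg 19 and Tg 18. With the exon length trend removed, 1 member (Ifi27l2a) was called between genotypes in medium and 7 between batches. With the replicate block the LPS comparison called 43 members in WT, adding Ly6e, and 42 in Scnn1b-Tg, adding Epsti1, Slfn5 and Sp100, the difference of the responses called 0, and a block on the number in the titles, instead of on the batch, gave 1 call between genotypes in medium (Ifi27l2a) and 0 in LPS. Leaving out both libraries of Tg 18 gave 1 call between genotypes in medium (Ifitm3). Between batches the count was 5 without WT 17, 0 without WT 18, 0 without Tg 17 and 4 without Tg 19. Leaving out single libraries gave 0 to 1 calls between genotypes in medium (1 without WT medium 18, Zbp1, and 1 without Scnn1b-Tg medium 18, Ifitm3), 2 to 13 between batches (2 without WT LPS 18 and 3 without Scnn1b-Tg LPS 17), 4 to 18 between pools (4 without Scnn1b-Tg LPS 17 or LPS 18) and 0 to 5 between WT 17 and WT 16 (5 without either library of Tg 17). The cause was not tested. Under alternatives other than DESeq2 and the replicate block, shares of all genes called are not given here. Member counts under them thus have no background beside them. The other comparisons of the members' calls stayed within 1.5 times of their counts. Between the pools of a group the median SD was 0.36 to 0.39 under all alternatives.

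For the 23 members followed singly through the alternatives, in the LPS comparisons of both genotypes, 1180 values kept direction and side of the threshold, 39 lost the call, 3 gained it and 14 turned direction. The 14 were of genes with few counts and were called under no setting. Without single libraries or pools, Cxcl9 ranged from -0.22 to 1.87 in WT and from -0.18 to 0.68 in Scnn1b-Tg, and Ifi44 in WT from -4.34 to 4.35. Cxcl9 in WT was at -0.22 without WT medium 18 and -0.05 without both WT 18 libraries, and in Scnn1b-Tg at -0.11 without LPS 18 and -0.18 without both Tg 18 libraries. Ifi44 in WT was at -0.62, -0.56 and -3.89 without WT medium 16, WT medium 17 and WT LPS 17, at -0.10 without Scnn1b-Tg medium 17 or medium 18, at -0.17 and -4.34 without both libraries of WT 16 and WT 17, at -0.11 without a batch term, at -0.15 with the replicate block and at -0.20 with the pool as a random effect. With 3 pools per group, and low genes that rest on a few reads, smaller differences between genotypes were not detectable.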
